A study of Mus musculus with 6 samples.

Results

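The mRNA levels of 57 mouse genes for translation initiation and elongation factors were compared in Ba/F3 cells that express human RPL10 in the WT or the R98S form. The genes were chosen by symbol (Eif or Eef followed by a digit, without Eif6 and without pseudogenes) and by a measured mean of at least 10 normalized read counts over the 6 libraries, which 57 of 70 matching symbols of 41255 listed genes met. The set includes the kinases of eIF2 and the 4E-BP inhibitors.

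RPL10 is a protein of the large ribosomal subunit, and its R98S mutation (arginine to serine) occurs in T-cell acute lymphoblastic leukemia. Ba/F3 is a lymphoid line of the mouse that needs interleukin-3 to grow. The dataset held 3 monoclonal cultures transduced with the RPL10 WT cDNA (clones 28, 29 and 36) and 3 with the RPL10 R98S cDNA (clones 11, 13 and 35), with 1 mRNA library per clone. In all 6 a short hairpin RNA lowered the endogenous mouse Rpl10 and the cultures had been picked for strong knockdown, and all received cycloheximide at 100 µg/ml for 5 min, which halts translating ribosomes, before RNA isolation. Each culture is 1 clone, so differences between genotypes and between clones are separated by only 3 clones per group. In bulk cultures, fewer cells of a type and less RNA per cell cannot be told apart.

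Translation of most mRNAs begins when eIF2 brings the initiator tRNA to the small ribosomal subunit, eIF3 holds the subunit ready, and the eIF4 factors bring it to the capped end of the mRNA. eIF2 must be recharged with GTP by eIF2B, and the eIF2 kinases block this step under stress, while the 4E-BPs block cap recognition. Once the subunits have joined, eEF1A delivers aminoacyl-tRNAs, eEF2 moves the ribosome along, and eIF5A helps at difficult peptide bonds.

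The libraries held between 21786776 and 24204991 reads assigned to genes, and 3 reads were taken as the floor of detection. Mouse Rpl10 (chromosome X, 74270812 to 74273135, plus strand) was present in all clones, with normalized counts of 2853, 3156 and 1900.4 for WT (clones 28, 29, 36) against 3028, 1883 and 2617 for R98S (clones 11, 13, 35) (log2 fold change -0.07, 95% interval -0.59 to 0.46, limma adjusted p = 0.871). The groups overlapped, and reads of the human transgene that align to the mouse gene cannot be told apart from its own. Of 6 B lineage markers, Cd79a and Cd79b were well detected, whereas Pax5, Vpreb1 and Igll1, and also Kit, had at most 3 reads in any library. The 6 B lineage markers summed to between 1284 and 1399 normalized counts in WT and between 1635 and 1953 in R98S clones. The groups overlapped in each of the 2 well detected genes taken alone. Cd79a had 996, 1194 and 1038 for WT against 996, 1239 and 1507 for R98S. Cd79b had 396, 143 and 235 against 625, 705 and 386. The 4 haematopoietic and interleukin-3 receptor markers summed to between 98118 and 118045 and between 134077 and 158695, carried by the receptor chains Csf2rb and Csf2rb2, which were higher in every R98S clone. Within that list Ptprc was lower in every R98S clone (10713, 14068 and 8869 for WT against 5657, 4391 and 3366 for R98S) and Il3ra overlapped (762, 919 and 702 against 646, 674 and 775). The 4 myeloid markers summed to between 30.7 and 60.0 in WT and between 2.78 and 7.14 in R98S clones. The 4 T cell markers summed to between 5.12 and 51.0 in WT and between 2.04 and 8.33 in R98S clones, the 4 mast cell and basophil markers to between 172 and 248 and between 71.4 and 529, and 3 erythroid markers to between 1939.5 and 3515 and between 1975 and 3599. The part of these marker differences in the results was not tested.

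Levels of the 57 genes ranged from scarce to very abundant and were themselves part of the choice, so they are given as a description. Mean normalized counts ran from 266 for Eif4e3 to 372441 for Eef1a1, with a median of 4536 over the members against 812 over all 11550 tested genes, and 32 of the 57 lay above the 90th percentile of tested genes. Below the minimum mean of 10 were Eif4ebp3 at 5.42, Eif5a2 at 3.43, Eif4e1b at 1.16, Eef1a2 at 0.507, Eif2s3y at 0.494 and Eif2c5 at 0. The paralogs of Eef1a1, Eif5a and Eif2s3x thus lay near or below the floor. Together the members took 4.25% ± 0.184 of all normalized counts for WT and 4.38% ± 0.138 for R98S (SD, n = 3), and Eef1a1 alone took 1.69% ± 0.105 and 1.58% ± 0.0590.

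Short sequence features of the promoters are shown first, because the levels of several of these genes are known to respond to factors that bind the E-box CACGTG, such as Myc, and their translation to a pyrimidine run at the transcription start. RefSeq windows from 250 bases before to 50 bases after the start (GRCm38.p6) were at hand for 46 of the 57 genes. The E-box, which reads the same on both strands, was found in 11 of the 46 genes (23.9%), in 985 of 8430 tested genes with a window (11.7%) and in 8.09% of all 27025 genes with one. Among members with a window, it was present in 2 of 11 genes called higher in R98S cells (defined with the comparison that follows), 0 of 3 called lower and 9 of 32 not called. The 2 called genes were Eef2k and Eif5a, and Eef2, Eif4e and Eif4g1 are shown beside them as major factors that held an E-box and were not called. Capitals mark the E-box in 30 bases of the gene's strand.
Eef2k, chr7:120842788-120842817, + strand: cccggggacggcCACGTGagcccgggcgtg
Eif5a, chr11:69920791-69920820, - strand: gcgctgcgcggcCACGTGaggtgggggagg
Eif5a, chr11:69921443-69921472, - strand: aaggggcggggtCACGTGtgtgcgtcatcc
Eef2, chr10:81176576-81176605, + strand: acccggcgccgtCACGTGacgcacccaacc
Eif4e, chr3:138527028-138527057, + strand: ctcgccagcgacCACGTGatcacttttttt
Eif4e, chr3:138527192-138527221, + strand: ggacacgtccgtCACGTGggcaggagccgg
Eif4g1, chr16:20672661-20672690, + strand: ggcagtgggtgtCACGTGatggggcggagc
Eif4g1, chr16:20672730-20672759, + strand: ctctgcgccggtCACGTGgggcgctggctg

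A pyrimidine run was defined as a C followed by at least 5 further C or T, on the gene's strand and starting within 20 bases of the annotated start. It was present in 16 of 46 members (34.8%) against 35.8% of tested genes, so the members did not stand out. Among members with a window, 2 of 11 genes called higher held one (Eif2b5 and Eif4b), 0 of 3 called lower and 14 of 32 not called. The runs of Eef1a1, the most abundant member, and of the 2 called genes are shown with the run in capitals.
Eef1a1, chr9:78481708-78481737, - strand: tggctccgCCCTCTTCCCgagggtggggga
Eif2b5, chr16:20498794-20498823, + strand: tgcgcattCCTTCCTCTTTCTCTCCCTgca
Eif4b, chr15:102073753-102073782, + strand: gcgcaggtCTTCCCgtcggacgccgcgcca
A match in these windows is a match of letters and does not show binding or a start site in use.

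R98S and WT clones were then compared to ask which factor mRNAs differ with the mutation. Unless another unit is named, gene values are normalized counts, given for WT clones 28, 29 and 36 and R98S clones 11, 13 and 35 in that order. In R98S cells 14 of the 57 factor mRNAs were upregulated, 5 were downregulated and 38 did not pass the test (limma on log2(normalized count + 1), adjusted p under 0.1 over all tested genes). The called share was 33.3% of the members against 23.9% of all 11550 tested genes. Upregulated members made up 24.6% against 10.7% of tested genes, and downregulated members 8.77% against 13.1%. In 29 of the 57 members (50.9%) the WT and the R98S clones did not overlap, against 37.3% of tested genes. The median log2 fold change was 0.11 for the members and -0.01 for all tested genes, with no member changed as much as 2-fold (range -0.70 to 0.78). Without WT clone 28 or without WT clone 29 the 19 calls fell to 11. Calls over all tested genes fell from 2755 to 1327 and 1464, respectively. With the shift of chromosomal neighbours removed the members' median was 0.064. With libraries scaled to the same upper quartile the split was 16 higher and 3 lower, and with edgeR's quasi-likelihood test 15 higher and 3 lower. The split over all tested genes was 1487 higher and 1338 lower with that scaling, and 1332 and 1414 with edgeR. In the main test it was 1241 higher and 1514 lower.

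**Figure D1:**
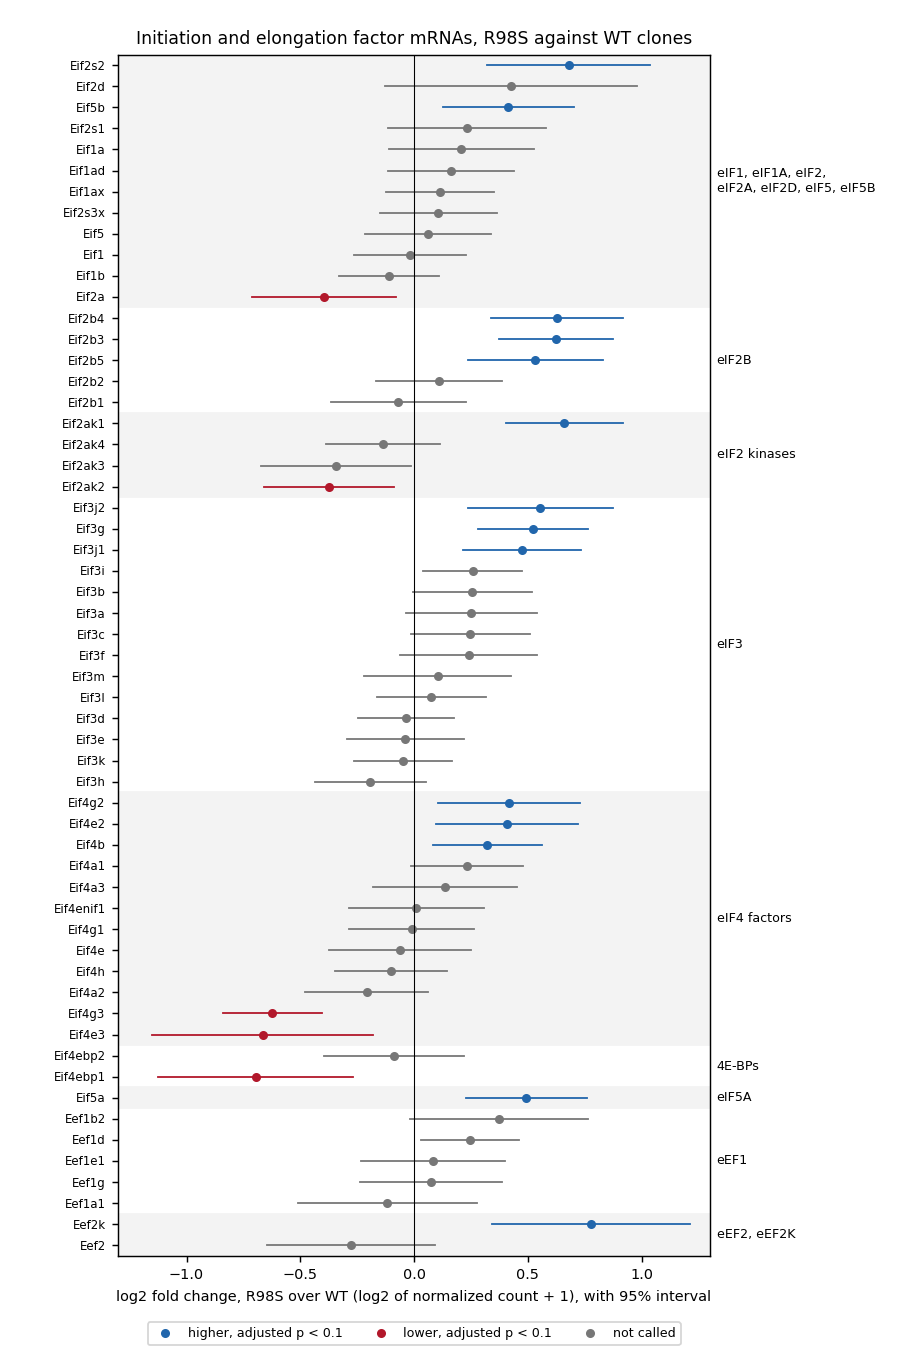
The horizontal axis gives the log2 fold change of each of the 57 genes, R98S over WT, with its 95% interval from limma (3 clones per group), and the rows are grouped by the role of the factor. Blue marks the 14 genes called higher and red the 5 called lower. Of the 5 eIF2B genes 3 are blue, and none of the 5 eEF1 genes was called (23.9% of all tested genes were called).

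**Figure D2:**
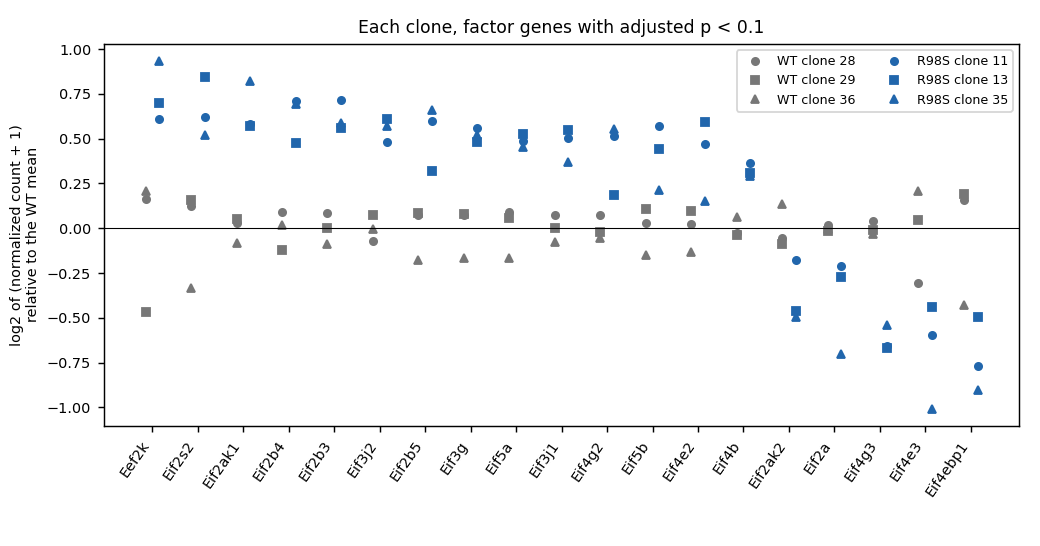
The vertical axis gives log2(normalized count + 1) relative to the WT mean for each of the 19 called genes, with 1 point per clone (grey for WT, blue for R98S). In every gene shown the 3 R98S clones lie on one side of the 3 WT clones, and the gaps are narrow for Eif4e2, Eif4ebp1, Eif2ak2, Eif5b and Eif4g2.

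Among the factors that bring the initiator tRNA and choose the start codon, 2 of 12 genes were upregulated, 1 was downregulated and 9 did not pass the test. Their called share of 25% was close to the 23.9% of all tested genes. Eif2s2 (chromosome 2, 154871410 to 154892940, minus strand) encodes the beta subunit of eIF2, and its normalized counts were 6708, 6883 and 4887 for WT (clones 28, 29, 36) against 9490.1, 11069.6 and 8822 for R98S (clones 11, 13, 35). All R98S clones were above all WT clones, and WT clone 36 was the lowest of all. Group means were 6159 ± 1106 for WT against 9794 ± 1154 for R98S (SD, n = 3), that is, 1.59 times the WT mean in R98S cells (log2 fold change 0.68, SE 0.16, adjusted p = 0.0263, limma). The call held in all 17 alternatives tried.

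The other subunits of eIF2 were not called. Eif2s1, the alpha subunit that the kinases phosphorylate, had 7663, 5654 and 7772 for WT against 9127, 7309.7 and 8207 for R98S (log2 fold change 0.23, 95% interval -0.11 to 0.58, limma adjusted p = 0.325). The groups overlapped, with WT clone 29 well below the rest. Eif2s3x, the gamma subunit on the X chromosome, had 11112, 10826 and 9750.4 for WT against 12539, 10383 and 11263 for R98S and overlapping groups (log2 fold change 0.11, 95% interval -0.15 to 0.37, limma adjusted p = 0.548). Per kilobase of annotated exon, Eif2s2 stood at 0.665 ± 0.217 of Eif2s1 for WT and 0.887 ± 0.194 for R98S, a difference within the spread between clones (exact two-sided permutation test, p = 0.3, adjusted p = 0.3 over 4 ratios, with 0.1 the smallest p that 3 against 3 clones allow).

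Eif5b (chromosome 1, 37998010 to 38055579, plus strand), whose product joins the ribosomal subunits, had 4903, 5169 and 4318 for WT against 7129, 6517 and 5572 for R98S. The groups did not overlap, with R98S clone 35 closest to the WT clones (log2 fold change 0.41, SE 0.13, adjusted p = 0.0609, limma). Its call was lost without WT clone 28, 29 or 36 or R98S clone 11 (adjusted p between 0.104 and 0.174) and after subtraction of the shift of its chromosomal neighbours (adjusted p = 0.458), and also without the intensity trend. Its exons share 1643 bases with those of Rev1 on the opposite strand, and reads of the pair cannot be told apart without a known strand setting.

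The downregulated gene of this group was Eif2a (chromosome 3, 58525821 to 58557501, plus strand), which encodes an alternative initiator tRNA carrier that is distinct from eIF2. Its normalized counts were 4413, 4319 and 4347 for WT against 3762, 3607 and 2681 for R98S, with R98S clone 35 far below the other R98S clones and no overlap (log2 fold change -0.40, SE 0.14, adjusted p = 0.0916, limma). The call was lost without any one of the 3 WT clones or R98S clone 35 (adjusted p between 0.148 and 0.227), and after removal of the regional shift (adjusted p = 0.487), with TMM or upper-quartile scaling, without the filter or the trend, and with edgeR. The exons of Eif2a share 72 bases with Serp1 on the opposite strand, whose mean of 7206 normalized counts is above that of Eif2a, 3855. Of the genes not called, Eif2d, a factor for initiation and reinitiation without eIF2, had the largest SE, with 1382, 1296 and 1942 for WT against 1893, 2878 and 1554 for R98S (log2 fold change 0.43, 95% interval -0.13 to 0.98, limma adjusted p = 0.263). R98S clone 13 was the highest and R98S clone 35 lay below WT clone 36. The start codon factors Eif1, Eif1b, Eif1a, Eif1ax and Eif5 and the related Eif1ad had log2 fold changes between -0.11 and 0.21, none of them called. Eif1ad shares 428 bases of exon with Banf1 on the opposite strand, which had a mean of 5652 normalized counts against 3363 for Eif1ad.

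eIF2B is the exchange factor that recharges eIF2 with GTP. Of its 5 subunit genes, Eif2b3, Eif2b4 and Eif2b5 were upregulated, none was downregulated, and Eif2b1 and Eif2b2 were not called. That is 60% called, against 23.9% of all tested genes. Eif2b5 (chromosome 16, 20498817 to 20509323, plus strand) encodes the catalytic epsilon subunit, and its normalized counts were 2796, 2818 and 2343 for WT (clones 28, 29, 36) against 4024, 3314 and 4190.1 for R98S (clones 11, 13, 35). R98S clone 13 was the lowest of its group and still above every WT clone (1.45 times the WT mean, log2 fold change 0.53, SE 0.13, adjusted p = 0.0308, limma). Without R98S clone 11 the adjusted p was 0.101, just outside the threshold.

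Eif2b4 (chromosome 5, 31187558 to 31193430, minus strand), the delta subunit, had 690.2, 595 and 655 for WT against 1061, 901 and 1045 for R98S. All R98S clones exceeded all WT clones by a wide gap (1.55 times the WT mean, log2 fold change 0.63, SE 0.13, adjusted p = 0.0171, limma), and the call held in all 17 alternatives. Its exons share 204 bases with Snx17 on the opposite strand, whose mean of 2192 normalized counts is above that of Eif2b4, 825. Eif2b3 (chromosome 4, 117019400 to 117087310, plus strand), the gamma subunit and partner of epsilon, had 1049, 989.7 and 932 for WT against 1626, 1462 and 1490.4 for R98S. The groups were clearly apart (1.54 times the WT mean, log2 fold change 0.62, SE 0.11, adjusted p = 0.0110, limma). However, the 30 tested genes nearest to Eif2b3 had a median shift of 0.44 on the log2 scale, and with that shift subtracted in each library the adjusted p was 0.280.

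The alpha and beta subunits belong to the regulatory part of eIF2B together with delta. Eif2b1 (alpha) had 1658, 1528 and 1244 for WT against 1415, 1348 and 1432 for R98S, and the groups overlapped fully (log2 fold change -0.07, 95% interval -0.37 to 0.23, limma adjusted p = 0.752). Eif2b2 (beta) had 1399.8, 1178 and 1335 for WT against 1270.4, 1505 and 1441 for R98S, again with overlap (log2 fold change 0.11, 95% interval -0.17 to 0.39, limma adjusted p = 0.576). Per kilobase of exon, the sum of Eif2b3, Eif2b4 and Eif2b5 over the sum of Eif2b1 and Eif2b2 was 1.09, 1.21 and 1.09 for WT against 1.81, 1.40 and 1.70 for R98S. This ratio was formed after the subunit values were seen and carries no test.

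**Figure D3:**
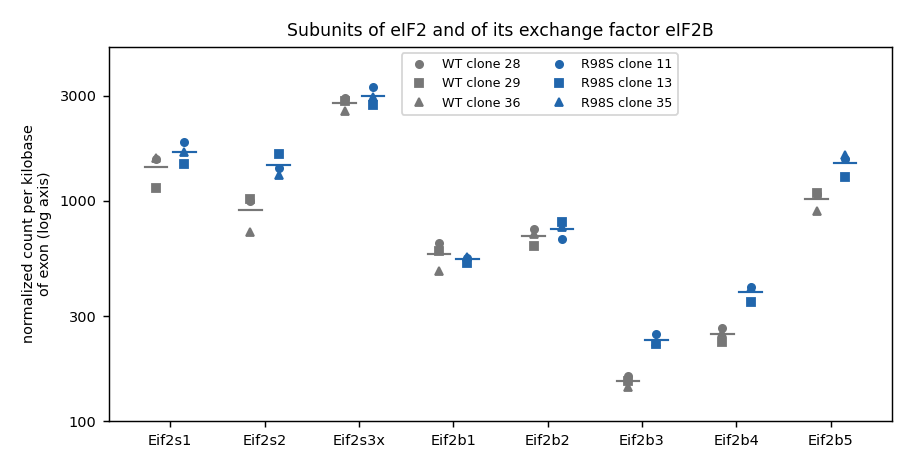
The vertical axis gives normalized counts per kilobase of annotated exon on a log axis for the subunit genes of eIF2 and eIF2B, with 1 point per clone and a line at each group mean. Eif2s2, Eif2b3, Eif2b4 and Eif2b5 show R98S clones above WT clones without overlap, and the other 4 genes overlap.

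The 4 eIF2 kinases each answer a different stress, and 2 of their mRNAs passed the test, in opposite directions (50% called, against 23.9% of all tested genes). Eif2ak1 (chromosome 5, 143817790 to 143904250, plus strand), the heme-regulated kinase, had 1502, 1523 and 1386 for WT (clones 28, 29, 36) against 2205, 2188 and 2596 for R98S (clones 11, 13, 35). The R98S clones lay far above the WT clones, 1.58 times the WT mean (log2 fold change 0.66, SE 0.11, adjusted p = 0.00976, limma), and the call held in all 17 alternatives. It overlaps Aimp2 by 487 bases of exon on the opposite strand, and Aimp2 had a mean of 409 normalized counts against 1900.0 for Eif2ak1.

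Eif2ak2 (chromosome 17, 78852564 to 78882573, minus strand), the kinase PKR that is activated by double-stranded RNA, was the downregulated member of the group. It had 2379, 2324 and 2709 for WT against 2186, 1796 and 1753 for R98S, with R98S clone 11 only a little below WT clone 29 (log2 fold change -0.37, SE 0.12, adjusted p = 0.0797, limma). The call was lost without any one clone except R98S clone 11 (adjusted p between 0.134 and 0.191), and with upper-quartile scaling, without the filter or the trend, and with edgeR.

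Eif2ak3, the kinase PERK of the endoplasmic reticulum, had 691, 876 and 679.5 for WT against 553, 579.7 and 628 for R98S. The groups did not overlap but the difference did not pass the test (log2 fold change -0.34, 95% interval -0.67 to -0.01, limma adjusted p = 0.143). Eif2ak4, the kinase GCN2 that senses uncharged tRNA, had 1107, 1155 and 1098 for WT against 1014, 1091 and 952 for R98S, also without overlap and with a small difference (log2 fold change -0.14, 95% interval -0.39 to 0.11, limma adjusted p = 0.421). The groups thus did not overlap in any of the 4 kinase genes, while 37.3% of all tested genes showed no overlap. Whether the effects on the kinases differ from each other was not tested.

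eIF3 is the large scaffold that binds the small subunit, and 3 of its 14 genes were upregulated, none was downregulated and 11 did not pass the test. The called share of 21.4% was no larger than the 23.9% of all tested genes. Eif3g (chromosome 9, 20894349 to 20898623, minus strand), an RNA-binding subunit, had 3812, 3826 and 3222 for WT (clones 28, 29, 36) against 5332, 5046 and 5186 for R98S (clones 11, 13, 35). The R98S clones were tightly grouped and well above the WT clones (1.43 times the WT mean, log2 fold change 0.52, SE 0.11, adjusted p = 0.0174, limma), and the call held in all 17 alternatives.

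Eif3j1 (chromosome 2, 122028550 to 122056600, plus strand) and Eif3j2 (chromosome 18, minus strand) encode the loosely bound j subunit. Eif3j1 had 855, 812 and 772 for WT against 1154, 1190.0 and 1051 for R98S (log2 fold change 0.48, SE 0.11, adjusted p = 0.0288, limma) and Eif3j2 249.9, 276 and 261 for WT against 367, 401 and 390.4 for R98S (log2 fold change 0.56, SE 0.14, adjusted p = 0.0337, limma). In both, each R98S clone was above each WT clone. Their transcripts are 99.4% identical over 2379 aligned bases, so reads can be assigned to the wrong copy or dropped, and the pair should be read as 1 uncertain result. Both are nevertheless counted among the upregulated eIF3 genes. Eif3j1 also shares 1107 bases of exon with Spg11 on the opposite strand, which had a mean of 1008 normalized counts against 972 for Eif3j1. Eif3j2 lost its call without WT clone 28 (adjusted p = 0.140).

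The remaining 11 eIF3 genes did not pass the test. Eif3a, Eif3b, Eif3c and Eif3i had log2 fold changes between 0.25 and 0.26 with no overlap between the groups, and their limma adjusted p lay between 0.105 and 0.211. Eif3i, a propeller subunit that pairs with Eif3b and Eif3g, came closest, with 6663, 6793 and 6063 for WT against 7853, 7863 and 7605 for R98S (log2 fold change 0.26, 95% interval 0.04 to 0.48, limma adjusted p = 0.105). Eif3h alone lay lower in R98S clones without overlap, and did not pass the test (log2 fold change -0.19, 95% interval -0.44 to 0.05, limma adjusted p = 0.254). For Eif3d, Eif3e, Eif3f, Eif3k, Eif3l and Eif3m the groups overlapped, with log2 fold changes from -0.05 to 0.24. With the called genes included, the groups did not overlap in 8 of the 14 eIF3 genes (57.1%), against 37.3% of all tested genes. As a percent of all normalized counts, the 14 eIF3 genes together took 0.514, 0.518 and 0.482 for WT against 0.543, 0.578 and 0.569 for R98S, without overlap between the groups. This sum includes the called genes and was not tested.

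The eIF4 factors recognise the cap and unwind the leader, and of 12 genes 3 were upregulated, 2 downregulated and 7 not called. This made 41.7% called, against 23.9% of all tested genes. Eif4g3 (chromosome 4, 137993020 to 138208510, plus strand), a homologue of the scaffold eIF4G1, had 3285, 3166 and 3118 for WT (clones 28, 29, 36) against 2021, 2002 and 2189 for R98S (clones 11, 13, 35). All R98S clones were far below all WT clones, and the mean fell to 64.9% of WT (log2 fold change -0.62, SE 0.09, adjusted p = 0.00666, limma). This was the smallest adjusted p among the 57 genes, and the call held in all 17 alternatives.

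Eif4g1 itself (chromosome 16, 20668313 to 20692884, plus strand) had 19229, 19612 and 17026 for WT against 19147, 16443 and 19955 for R98S. The groups overlapped fully, and the sign of the difference changed with the scaling (log2 fold change -0.01, 95% interval -0.29 to 0.26, limma adjusted p = 0.962). Eif4g2 (chromosome 7, 111067750 to 111083030, minus strand), an eIF4G relative that lacks the part that binds eIF4E, had 40103, 37577 and 36795 for WT against 54469.5, 43389.6 and 55960.3 for R98S. The groups did not overlap, with R98S clone 13 close to the WT clones (1.34 times the WT mean, log2 fold change 0.42, SE 0.14, adjusted p = 0.0746, limma). Its call was lost without any one clone except R98S clone 13 (adjusted p between 0.134 and 0.209), with the regional shift removed (adjusted p = 0.269), and without the filter or the trend.

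Eif4e (chromosome 3, 138526180 to 138559700, plus strand), the cap-binding protein, had 5404, 5707 and 4774 for WT against 5987, 4858 and 4452 for R98S. R98S clone 11 was the highest and R98S clone 35 the lowest of all, so the groups overlapped (log2 fold change -0.06, 95% interval -0.37 to 0.25, limma adjusted p = 0.786). Its relatives Eif4e2 and Eif4e3 were called in opposite directions. Eif4e2, which binds caps without promoting initiation, had 2239, 2356 and 2008 for WT against 3054, 3316 and 2445 for R98S (log2 fold change 0.41, SE 0.14, adjusted p = 0.0808, limma), and Eif4e3, an atypical cap binder, had 264, 337 and 377 for WT against 216, 239.8 and 162 for R98S (log2 fold change -0.67, SE 0.21, adjusted p = 0.0704, limma). Neither showed overlap between the groups. Eif4e2 lost its call without any one clone except R98S clone 35 (adjusted p between 0.135 and 0.201), with the regional shift removed (adjusted p = 0.384), and without the filter or the trend. Eif4e3 lost it without WT clone 29 or 36 or R98S clone 11 or 35 (adjusted p between 0.136 and 0.186).

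Eif4b (chromosome 15, 102073770 to 102097170, plus strand), which stimulates the eIF4A helicase, had 28244, 28116 and 30115 for WT against 37128, 35641 and 35295 for R98S. The R98S clones were all above the WT clones by a modest step (1.25 times the WT mean, log2 fold change 0.32, SE 0.10, adjusted p = 0.0742, limma). The call was lost without WT clone 28 or 29 or R98S clone 11 or 35 (adjusted p between 0.108 and 0.250) and without the filter on low values. The related helper Eif4h was not called (log2 fold change -0.10, 95% interval -0.35 to 0.15, limma adjusted p = 0.557).

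The eIF4A helicases are encoded by the paralogs Eif4a1 and Eif4a2, neither of which was called. Eif4a1 had 19946, 18947 and 17280.2 for WT against 21441, 23075 and 21376 for R98S and no overlap (log2 fold change 0.23, 95% interval -0.01 to 0.48, limma adjusted p = 0.179). Eif4a2 had 7659.7, 7409.7 and 8623 for WT against 7487, 6066 and 6980.3 for R98S, with R98S clone 11 between the WT clones (log2 fold change -0.21, 95% interval -0.48 to 0.06, limma adjusted p = 0.260). Eif4a2 shares 194 bases of exon with Rfc4 on the opposite strand, which had a mean of 1105 normalized counts. Per kilobase, the ratio of Eif4a1 to Eif4a2 was 3.21, 3.15 and 2.47 for WT against 3.53, 4.69 and 3.77 for R98S. Every R98S clone had a higher ratio than every WT clone (exact two-sided permutation test, p = 0.1, the smallest possible, adjusted p = 0.133 over 4 ratios). Eif4a1 passed the DESeq2 test (adjusted p = 0.0958), as did Eef1b2, Eef1d and Eif3i (adjusted p = 0.0745, 0.0594 and 0.0439). Eif4a3, the helicase of the exon junction complex, and Eif4enif1, a transporter of eIF4E, had log2 fold changes of 0.14 and 0.01 and were not called.

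Eif4ebp1 (chromosome 8, 27260329 to 27276674, plus strand), which binds eIF4E and blocks cap-dependent initiation, had the most negative log2 fold change of the 57 genes. Its normalized counts were 5162, 5282 and 3435 for WT (clones 28, 29, 36) against 2714, 3279 and 2469 for R98S (clones 11, 13, 35). All R98S clones were below all WT clones, but WT clone 36 lay near R98S clone 13. The mean fell to 61.0% of WT (log2 fold change -0.70, SE 0.19, adjusted p = 0.0418, limma), and the call was lost without WT clone 28 or 29 or R98S clone 11 or 35 (adjusted p between 0.120 and 0.139). Its paralog Eif4ebp2 had 2785, 2610.3 and 2649 for WT against 2511, 2134 and 2991 for R98S and overlapping groups (log2 fold change -0.09, 95% interval -0.40 to 0.22, limma adjusted p = 0.689).

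The ratio of inhibitor to target mRNA was formed in each clone. Per kilobase, Eif4ebp1 over Eif4e was 2.61, 2.53 and 1.97 for WT against 1.24, 1.85 and 1.52 for R98S. Every R98S clone was below every WT clone (exact two-sided permutation test, p = 0.1, the smallest possible, adjusted p = 0.133 over 4 ratios). Eif4ebp1 was itself called lower in the same clones, so its ratio is not a separate result.

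Eif5a (chromosome 11, 69916714 to 69921958, minus strand), the hypusine-carrying factor that helps form peptide bonds at proline runs, was upregulated. Its normalized counts were 27346, 26696 and 22853 for WT (clones 28, 29, 36) against 35948, 36907 and 35105 for R98S (clones 11, 13, 35). The R98S clones were close together and all above the WT clones (1.40 times the WT mean, log2 fold change 0.49, SE 0.12, adjusted p = 0.0280, limma). With the shift of its chromosomal neighbours subtracted the adjusted p was 0.141, and the call held in all other alternatives.

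The 3 most abundant members, Eef1a1, Eef2 and Eef1g, encode elongation factors and did not pass the test. Eef1a1 (chromosome 9, 78478449 to 78489151, minus strand), which delivers aminoacyl-tRNAs, had 403260.5, 408407 and 352475 for WT (clones 28, 29, 36) against 345190.5, 373464 and 351847 for R98S (clones 11, 13, 35). R98S clone 13 lay above WT clone 36, so the groups overlapped (log2 fold change -0.12, 95% interval -0.51 to 0.27, limma adjusted p = 0.672). Eef2 (chromosome 10, 81176631 to 81182498, plus strand), the translocase, had 118873, 127362 and 103558 for WT against 85157, 111851 and 92166 for R98S, with R98S clone 13 again above WT clone 36 (log2 fold change -0.28, 95% interval -0.65 to 0.09, limma adjusted p = 0.273). It passed the test in 1 alternative only, without R98S clone 13 (adjusted p = 0.0979).

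The exchange factor of eEF1A is built from Eef1b2, Eef1d and Eef1g. Eef1b2 had 31432, 34098 and 30654 for WT against 44482, 49834 and 32191 for R98S, where R98S clone 35 lay among the WT clones (log2 fold change 0.37, 95% interval -0.02 to 0.76, limma adjusted p = 0.175). Eef1d had 5346, 5894 and 5381 for WT against 6620.1, 6345 and 6742 for R98S without overlap, and Eef1g overlapped (log2 fold change 0.25, 95% interval 0.03 to 0.46, limma adjusted p = 0.116 and log2 fold change 0.07, 95% interval -0.24 to 0.39, limma adjusted p = 0.747, respectively). Eef1e1, which is part of the aminoacyl-tRNA synthetase complex, was not called (log2 fold change 0.08, 95% interval -0.23 to 0.40, limma adjusted p = 0.717).

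Eef2k (chromosome 7, 120842830 to 120907450, plus strand), the kinase that inactivates eEF2 by phosphorylation, had the largest log2 fold change of the 57 genes. Its normalized counts were 1810.5, 1169 and 1865 for WT (clones 28, 29, 36) against 2466, 2619.9 and 3085 for R98S (clones 11, 13, 35). All R98S clones exceeded all WT clones, and WT clone 29 was well below the other two WT clones. Group means were 1615 ± 387 for WT against 2724 ± 323 for R98S (SD, n = 3), that is, 1.69 times the WT mean in R98S cells (log2 fold change 0.78, SE 0.19, adjusted p = 0.0310, limma). The 30 nearest tested genes had a median shift of 0.35 on the log2 scale, and the adjusted p after its subtraction was 0.157. Per kilobase, the ratio of Eef2k to Eef2 was 0.00683, 0.00412 and 0.00808 for WT against 0.0130, 0.0105 and 0.0150 for R98S, higher in every R98S clone than in every WT clone (exact two-sided permutation test, p = 0.1, the smallest possible, adjusted p = 0.133 over 4 ratios). Eef2k was itself called higher in the same clones, so this ratio is not a separate result.

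**Figure D4:**
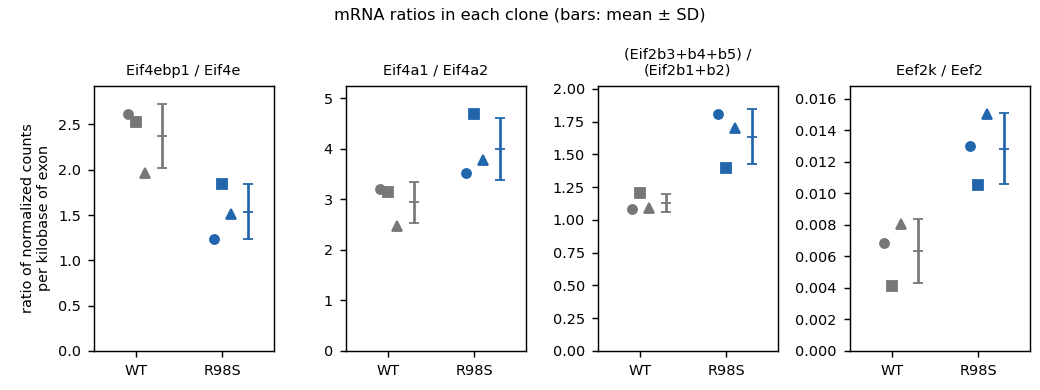
Each panel gives 1 ratio of normalized counts per kilobase of exon on an axis from 0, with 1 point per clone and the mean ± SD of 3 clones beside it. The Eif4ebp1 to Eif4e ratio is lower in R98S clones (1.24 to 1.85 against 1.97 to 2.61), and the ratios of Eif4a1 to Eif4a2, of the 3 upregulated to the other 2 eIF2B subunits and of Eef2k to Eef2 are higher, each without overlap. The eIF2B subunits were divided by their calls in the same clones, so that ratio carries no test.

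Per kilobase of exon, the order of mean levels was Eef1a1, Eef2, Eef1g, Eef1b2 and Eif5a, at 149395, 32038, 24029.6, 14659 and 12961 normalized counts per kilobase over the 6 libraries. At the other end, Eif4e3, Eif2ak3, Eif3j2 and Eif2ak4 had 106, 111, 136 and 143. Within eIF2B, epsilon (Eif2b5) stood at 1251 and gamma (Eif2b3), with which it pairs, at 193. Lengths are those of the annotated exons together, so a gene with a long unused exon appears lower than it is.

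The chromosomal surroundings were examined because the genes around some members shifted with them. The 57 genes lie on 19 chromosomes and the 19 called genes on 14, with at most 2 called genes on any of them. For each gene with a known position, the shift of its surroundings, taken as the median over the 30 closest tested genes, was subtracted in each library. All 57 members had a position, as did 11021 of the tested genes. Tested genes without one were left unchanged. Of the 19 called members 12 kept the call, and 7 lost it, namely Eef2k, Eif2b3, Eif5a, Eif4g2, Eif4e2, Eif5b and Eif2a. In these 7 the surrounding shift had the same direction as the gene's own change and ranged in size from 0.14 (Eif5a) to 0.44 (Eif2b3). Subtracting such a shift makes the change smaller, so the shared direction follows largely from picking genes that lost the call. For the upregulated Eif2ak1, Eif2b4, Eif3g, Eif3j2 and Eif4b the surrounding shift was below 0, from -0.20 to -0.02, and for the downregulated Eif2ak2 it was 0.08. The other genes that kept the call, Eif2b5, Eif2s2, Eif3j1, Eif4e3, Eif4ebp1 and Eif4g3, had a shift in their own direction, largest for Eif3j1 (0.18). Conversely, Eef1d, Eif1a, Eif3b and Eif3i passed the test after the subtraction, all of them higher in R98S cells (limma adjusted p between 0.0291 and 0.0707). After the subtraction 16 of the 57 members were thus called, beside 2885 of all 11550 tested genes. Before it the counts were 19 and 2755. What moved the neighbours was not tested.

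**Figure D5:**
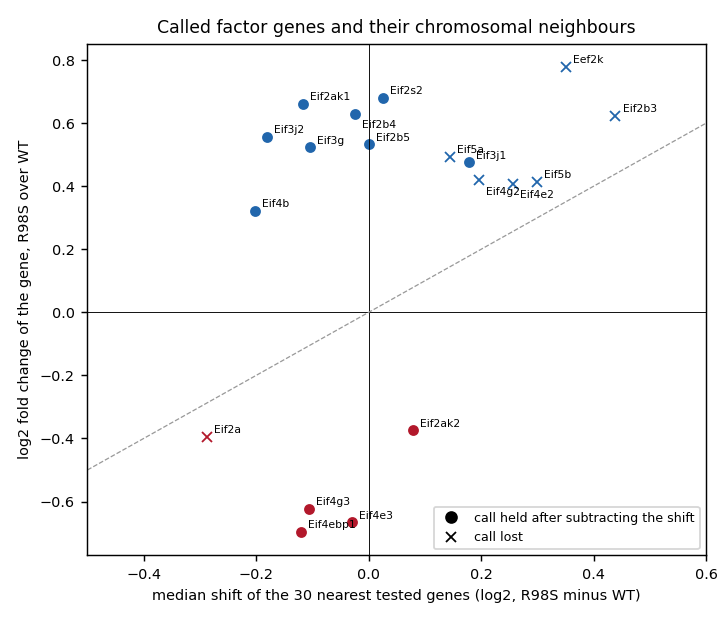
The horizontal axis gives the median log2 shift over the 30 closest tested genes and the vertical axis the log2 fold change of each of the 19 called genes, R98S over WT. Crosses mark the 7 genes whose call was lost after the shift was subtracted, and the dashed line marks equality, above which all the upregulated genes lie.

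Other genes of the translation pathway were followed as well, from a list of 44 of which 43 were tested. Of these, 5 were upregulated and 2 downregulated (16.3% called, against 23.9% of all tested genes), and the median log2 fold change was 0.10. Among 9 mitochondrial factors, Mtrf1, a release factor, had 198, 195 and 193 for WT against 362, 339 and 328 for R98S (log2 fold change 0.81, limma adjusted p = 0.0116), and Tufm, which delivers aminoacyl-tRNAs in mitochondria, had 687, 715 and 647 for WT against 1042, 1003 and 1086 for R98S (log2 fold change 0.61, limma adjusted p = 0.0127). In both the groups were far apart. The called share of the mitochondrial factors was 22.2%, close to the 23.9% of all tested genes.

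Of 6 diphthamide genes, which modify eEF2, 2 were called (33.3%). Of 2 hypusine genes, which modify eIF5A, 1 was called (50%). The share over all tested genes was 23.9%. Dph1 and Dph3, which act in making diphthamide on eEF2, were higher in R98S cells (log2 fold change 0.63, limma adjusted p = 0.0338, and log2 fold change 0.44, limma adjusted p = 0.0759), as 2 of 6 genes of that pathway. Dhps, which makes the hypusine precursor on eIF5A, was lower (log2 fold change -0.58, limma adjusted p = 0.0836), while the median shift of its 30 neighbours was -0.41 and its call was lost once that shift was subtracted (adjusted p = 0.609). Dph3 lost its call in the same way (adjusted p = 0.284). Both also lost it when a clone was left out, Dhps for any clone but WT clone 36 (adjusted p between 0.128 and 0.248) and Dph3 for any but R98S clone 35 (adjusted p between 0.104 and 0.208).

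Mcts1, a reinitiation factor, had 984, 993 and 1021 for WT against 1306, 1329.9 and 1409 for R98S (log2 fold change 0.43, limma adjusted p = 0.0286). Impact, an inhibitor of the activation of GCN2, had 897, 952 and 627 for WT against 492, 489 and 619.9 for R98S (log2 fold change -0.61, limma adjusted p = 0.0633). Its groups did not overlap, with WT clone 36 just above R98S clone 35. Impact lost its call without WT clone 28 or 29 or R98S clone 11 or 13 (adjusted p between 0.119 and 0.197), Mcts1 without WT clone 28 (adjusted p = 0.125) and Dph1 without WT clone 29 (adjusted p = 0.115). None of the 5 termination, recycling and rescue factors, the 5 poly(A)-binding genes, the 2 eIF4E kinases or the 2 subunits of the eIF2 phosphatases was called. Eif6, left out by the choice of symbols, had 3121, 3093 and 2760.1 for WT against 3213, 4256 and 3144 for R98S and was not called (log2 fold change 0.23, 95% interval -0.09 to 0.55, limma adjusted p = 0.291).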

How the data were processed

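Messenger RNA of 6 monoclonal Ba/F3 cultures was sequenced on an Illumina HiSeq instrument from stranded libraries. The authors removed ribosomal and transfer RNA reads with Bowtie2, aligned the rest to the mm10 genome with TopHat, kept primary alignments with a mapping quality of at least 10 and counted reads on exons. SAMtools and HTSeq are named in the submitters' processing notes, and the annotation and strand setting of the counting are not given in the sources used here. The deposited values are a signal, the count of each gene divided by the DESeq2 size factor of its library. In each library 100% of the values were whole multiples of one step (tolerance 0.01), which returned the reads. Depth was similar in all libraries, and what set the precision was not tested.

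WT and R98S clones (3 each, grouped by their labels) were compared by a two-sided limma test (version 3.58.1, R 4.3.3) with an intensity trend, run on log2(normalized count + 1) for 11550 genes with a mean of at least 10. Adjusted p-values are Benjamini-Hochberg values over all of these genes, with a threshold of 0.1, and fold changes on this scale understate those of weak genes. No 2 libraries of a group agreed within sampling noise (17.1 to 58.8 units of chi-square per degree of freedom), so none was counted as a duplicate of another. Ratios of 2 genes were compared with an exact permutation test over the 20 arrangements of the clones. Its smallest p is 0.1, so no ratio could pass a threshold of p under 0.1. Coordinates and exon lengths are from the GENCODE annotation of GRCm38, matched by symbol for all 57 members, and near-identical copies (at least 98% over 100 bases) were sought with blastn 2.17.0. The limma step was tested only on simulated counts with 2-fold changes and a fixed spread between clones. No member changed that much, so the simulation does not show how reliable the members' calls are. The members and lists were chosen with earlier results of these data known. Genes named are all called members, a list of major factors (among them Eef1a1, Eef2, Eif4e, Eif4g1 and the eIF2 kinases), and the called genes of the other translation list, and any other member was named after its values were seen.

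Alternatives were pseudocounts of 0.5 and 5, a minimum mean of 50 or no filter, library scaling by total, upper quartile or TMM factors, limma without trend, edgeR 4.0.16 and DESeq2 1.42.0 on the recovered reads, subtraction of the median shift over the 30 closest tested genes, a threshold of 0.05, and leaving out each clone in turn.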

Additional observations from a re-analysis of the deposited data

How the results depend on the processing

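No paired analysis was possible because no clone number occurs in both groups. The 19 called members (14 higher, 5 lower) became 12 at an adjusted p under 0.05, with 2 lower, and between 11 and 20 when 1 clone was left out, with 9 to 15 higher and 1 to 5 lower. The fewest, 11, came without WT clone 28 or without WT clone 29. Lower calls numbered 3 without the filter, with upper-quartile scaling, without the intensity trend and with edgeR. In the same settings 1229, 1338, 1247 and 1414 of all tested genes were called lower, against 1514 in the main test. Over all tested genes 2755 calls became 1722 at the threshold of 0.05 and between 1327 and 3219 without 1 clone. The 7 called genes of the other translation list became 4 at 0.05 and between 3 and 10 without 1 clone. The members' median log2 fold change of 0.11 became 0.15 with upper-quartile scaling and 0.064 with the regional shift removed.

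No called member changed sign. Of the 19 called members 6 (Eif2ak1, Eif2b4, Eif2s2, Eif3g, Eif3j1 and Eif4g3) kept the call in all 17 alternatives, 10 lost it without some clone and 3 (Eef2k, Eif2b3 and Eif5a) lost it only with the regional shift removed. None of these alternatives changed how reads were assigned to genes. They therefore do not address the near-identity of Eif3j1 and Eif3j2 or the exons that Eif2ak1, Eif2b4 and Eif3j1 share with other genes. Signs reversed for genes near 0. The log2 fold change of Eif4g1 was 0.010 with total scaling, 0.030 with upper-quartile scaling, 0.0037 with TMM, 0.0065 with edgeR, 0.0015 with DESeq2 and 0.011 with the regional shift removed, and ranged from -0.074 to 0.073 without 1 clone. With the regional shift removed, Eif4e was at 0.16 and Rpl10 at 0.039. Without 1 clone, Eif4e ranged from -0.18 to 0.030, Eif4ebp2 from -0.21 to 0.032 and Rpl10 from -0.29 to 0.13. Over 38 named genes and 17 alternatives, 547 of 646 values kept direction and side of the threshold, 81 lost a call, 2 gained one and 16 reversed. The causes of these changes were not tested. The scarcest member had 175 reads in its lowest library, above the floor of 3 reads. An interval that spans 0 does not show that a member was equal in both groups.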

Other observations

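Of the 70 symbols that matched, 6 were pseudogenes and took no part in the comparison. Their mean normalized counts ran from 0.660 for Eif1-ps3 to 548.5 for Eif3s6-ps2, which carries an older name of the eIF3 subunit gene Eif3e. Eif4a-ps4 had 78.5, Eif5al3-ps 15.9 and Eif3s6-ps1 11.9. For Eif4a1, Eif4a-ps4 amounted to 0.386% of the gene's own mean. Other members also had near-identical copies, among them Eef1a1 (98.6% over 1317 bases), Eef1g (99.6% over 1342), Eif2s2 (99.5% over 992), Eif2s3x (100% over 1350) and Eif3m (98.5% over 1125). Reads that match both places can be dropped by the mapping quality filter. A low count of a copy therefore does not show how many reads its gene lost.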
